A study of Mus musculus with 21 samples.

Results

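The comparison described here is that of untransduced C2C12 myotubes (MTs) at day 6 of differentiation with untransduced C2C12 myoblasts (MBs) at day 0. It takes the 6 arrays whose sample titles read day6, untransduced or day0, untransduced, 3 of each, out of 21 arrays in the series. C2C12 is a mouse line grown from adult muscle precursor cells, so all cultures derive from a single immortal line and not from separate animals. The MTs had been kept in 2% horse serum, with 1 µM tetrodotoxin, a sodium channel blocker that stops twitching, added at 72 h by the sample labels and at a later time by the study's methods. They were lifted by a short, partial trypsin digestion that leaves much of the unfused population behind. The MBs were proliferating cells in 20% serum without tetrodotoxin. Neither group carried a virus. Serum, tetrodotoxin, trypsin treatment and days in culture therefore differed together with differentiation, and their parts cannot be told apart. The methods call the replicates biological. The other 15 arrays, MTs of lentiviral shRNA lines, were normalized together with these 6. They also took part in the filter and choice of probes and in the estimate of the spread between replicates. Beyond that they were used only where they are named.

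Myoblasts are committed muscle precursors that keep dividing in rich serum. When serum is withdrawn they leave the cell cycle, switch on the later myogenic transcription factors and fuse into long cells with many nuclei. Contractile filaments are built in these cells. The change is known best for its muscle proteins and its cell cycle genes. A cell that will not divide again also has less use for new nucleotides, ribosomes and DNA repair, while a large, excitable and mechanically loaded cell depends on sodium pumps, membrane repair, chaperones and energy buffering. The gene groups below were taken mainly from these less visible functions. They were chosen with earlier results of these data known, so their directions are a description and not a test of these expectations.

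Each array gave a non-normalized intensity per probe, which was corrected for background, quantile-normalized and expressed as log2, and 13581 genes were compared. A gene was called where the adjusted p of limma, a linear model fitted across all genes, was below 0.05 and the log2 ratio of MTs over MBs exceeded 0.5 in size. By this rule 14.6% of the genes were called higher in MTs (1982 genes) and 16.4% lower (2226 genes), and the MT and MB arrays did not overlap for 41.1% of all genes. The median SE of a log2 ratio was 0.105, a precision set by the few arrays per group. Because the intensity scale holds an offset, folds of dim genes are understated, and where no array of the dimmer group lay above background the fold is given as a lower bound ("at least"). These are bulk cultures, so fewer cells of a kind and less RNA per cell cannot be told apart.

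Marker genes went with the labels. Of 15 contractile genes tested 14 were higher in MTs, with a median log2 ratio of 5.90, and of 11 proliferation genes 9 were lower, with a median of −3.80. The fast skeletal troponin gene Tnnt3 measured 13.85, 14.06 and 13.97 log2 in MTs, against 6.21, 6.11 and 6.23 in MBs. The DNA helicase subunit gene Mcm5 measured 6.85, 7.48 and 7.18 in MTs, against 11.45, 11.61 and 11.52 in MBs. Mean raw intensity was 172 to 220 on the MT arrays and 192 to 289 on the MB arrays, and the share of probes above background was 42.9% to 45.3% on MT arrays, against 43.6% to 48.9% on MB arrays.

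MB replicate 1 stood apart from the other MB arrays, with more genes far above them than far below. It correlated with MB replicates 2 and 3 at r = 0.966 and 0.961 across genes, while these correlated with each other at 0.993 and no pair of MT arrays fell below 0.981. Genes are not independent replicates, so these values only describe the arrays. In MB replicate 1, 503 genes lay over 1 log2 above the mean of the other MB arrays and 144 lay over 1 log2 below it, against 19 genes that far apart between replicates 2 and 3. Over the 503 genes the median level was 8.57, 8.37 and 8.29 in the untransduced MTs and 8.20 to 8.95 in the 15 shRNA MTs, against 8.84 in MB replicate 1 and 7.33 and 7.29 in MB replicates 2 and 3. That MB replicate 1 stood above the other MB arrays here is fixed by the choice of these genes. It also lay above the 3 untransduced MT arrays and within the range of the shRNA MT arrays. MB replicates 2 and 3 lay below every MT array. These places against the MT arrays are favoured by the same choice, since the values of all MB arrays entered it. Over the 144 genes the median was 8.99, 9.37 and 9.26 in untransduced MTs, against 8.24 in MB replicate 1 and 9.40 and 9.58 in the others. Here MB replicate 1 lay below all MT arrays, a place that the choice of these genes also favours. Contractile genes did not follow, since the summed intensity of the 15 was 182397 to 189516 on MT arrays, against 5671 to 5871 on MB arrays.

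**Figure D1:**
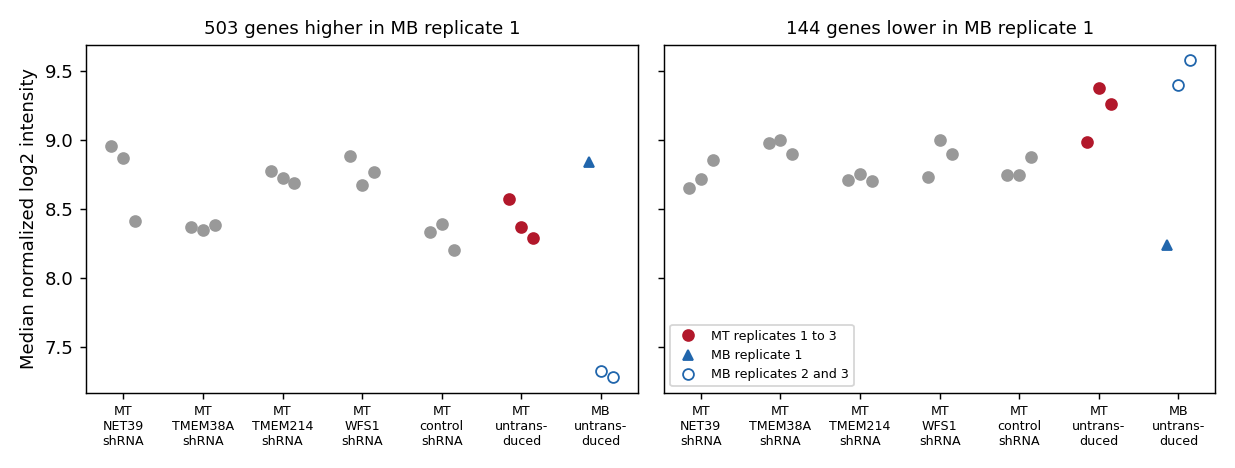
Median normalized log2 intensity (vertical axis) per array, by group of cells, over the 503 genes that were more than 1 log2 higher (left) and the 144 that were more than 1 log2 lower (right) in MB replicate 1 than in the mean of the other MB arrays. On the left MB replicate 1, at 8.84, sits above the untransduced MT arrays and among the shRNA MT arrays. MB replicates 2 and 3, at 7.33 and 7.29, lie below it by the choice of genes. The places of the MB arrays against the MT arrays are favoured by the same choice.

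The array matters for which genes were called. Of the 503 genes 222 were called higher in MTs with all arrays and 383 without MB replicate 1. The direction of this change follows from their choice, since leaving out MB replicate 1 lowers the MB mean of each of them. The electron carrier thioredoxin, Txn1, measured 10.09, 9.87 and 9.52 in MTs, against 10.50, 8.26 and 7.98 in MBs. Its log2 ratio was 0.92 with an adjusted p of 0.0768, and 1.71 with an adjusted p of 1.6e-07 without MB replicate 1. Txn1 and the genes of the next sentences were chosen after their values were seen. The DNA clamp gene Pcna measured 7.77, 7.49 and 7.39 in MTs, against 9.14, 6.59 and 6.60 in MBs, so that a gene of DNA replication was higher in MTs than in the remaining MBs (log2 ratio 0.96, adjusted p 0.00163) once that array was left out, and had a ratio of 0.11 with it. The microtubule destabiliser gene Stmn1 had a ratio of −0.86 with the array and 0.25 without it, and neither passed the test. Calls over all genes moved less, to 15.8% higher (2140 genes) and 17.7% lower (2405) without the array, with 1793 and 2071 genes shared. Among the MTs replicate 1 was the most distant array, with 57 genes over 1 log2 above and 93 below the mean of the other MT arrays.

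Scaling was the other choice that mattered. Quantile normalization puts the median ratio of all genes at −0.02. Scaling each array to its median instead put it at −0.08, and at −0.38 among the brighter genes, and calls became 4.85% higher (658 genes) and 22.5% lower (3056). Of all calls 47.1% were higher with quantile normalization and 17.7% with median scaling. A call is described as held below where the gene was also called in the same direction without MB replicate 1 and with median scaling, and its MT and MB arrays did not overlap. Median scaling kept 658 of the 1982 calls higher and 2070 of the 2226 calls lower. It moves ratios downward, so holding is a strict check for rises and a weak one for falls. Held calls made up 4.82% of all genes tested for higher (655 genes) and 13.4% for lower (1823 genes), and these are the shares that counts of held calls in a gene group are to be read against. Counts of all calls in a group are to be read against 14.6% higher and 16.4% lower, and a count near these shares is no trait of the group.

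Genes matching a list of name patterns for muscle structure or cell cycle were set aside before the largest changes were ranked, among them the myosin chaperone gene Unc45b and the chromatin assembly gene Chaf1b described below. The 10 largest rises among the rest were led by Fxyd6, Trim72 and Igf2. Fxyd6, a small membrane protein of the family that tunes the sodium pump, measured 10.91, 11.46 and 11.38 in MTs, against 5.79, 5.90 and 5.93 in MBs, where no array was above background (at least 36.5-fold higher, log2 ratio 5.38 ± 0.10 SE, adjusted p 1.12e-18). Trim72, a ubiquitin ligase that gathers vesicles at membrane wounds, measured 10.75, 11.79 and 11.12 in MTs, against 6.07, 5.88 and 5.92 in MBs (38.4-fold). The growth factor gene Igf2 measured 13.20, 12.15 and 12.28 in MTs, against 7.40, 7.37 and 7.85 in MBs (32.1-fold). In none of these did an MT array come near the MB arrays. Cox8b, the muscle form of a cytochrome c oxidase subunit, measured 11.66, 10.86 and 9.78 in MTs, against 5.76, 6.29 and 6.13 in MBs (26.2-fold). Pvalb, the calcium buffer of fast fibres, measured 12.90, 9.96 and 9.57 in MTs, against 6.16, 6.45 and 6.62 in MBs (21.2-fold). Both separated the groups, but Cox8b spread widely over the MT cultures, and the log2 ratio of Pvalb was 4.40 on all arrays and 3.36 without MT replicate 1. The remaining members of the 10 were Slc2a6 (29.2-fold), a sugar transporter of the glucose carrier family, Tmem182 (29.1-fold), Mustn1 (24.8-fold), Itgb1bp2 (22.8-fold), which encodes the integrin-binding chaperone melusin, and Srpk3 (19.4-fold), a kinase of splicing factors found in muscle.

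The largest falls among the same genes were led by a water channel. Aqp1, which lets water cross the plasma membrane, measured 6.25, 6.91 and 7.03 in MTs, against 11.58, 11.32 and 11.18 in MBs (24.8-fold lower, log2 ratio −4.63 ± 0.14, adjusted p 1.86e-15). Igfbp2, which binds IGFs in the medium, measured 7.48, 7.70 and 7.31 in MTs, against 11.18, 10.97 and 11.58 in MBs (13.5-fold lower). Chst1, a sulfotransferase of keratan sulfate chains, measured 6.11, 6.57 and 6.44 in MTs, against 10.38, 10.11 and 9.59 in MBs (12.6-fold lower). No MT value of these 3 genes reached the MB range. Nqo1 (8.77-fold lower), a quinone reductase, Selenoh (8.26-fold lower), a nucleolar selenoprotein, and Fbln1 (8.09-fold lower), a matrix glycoprotein, followed. Cdca8, Cdca3, Cdca2 and Clspn, with log2 ratios of −3.91, −3.78, −3.25 and −3.18, also ranked here, although they serve chromosome segregation and replication checkpoints and were missed by the name patterns used to set cell cycle genes aside. All 20 genes held their calls.

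**Figure D2:**
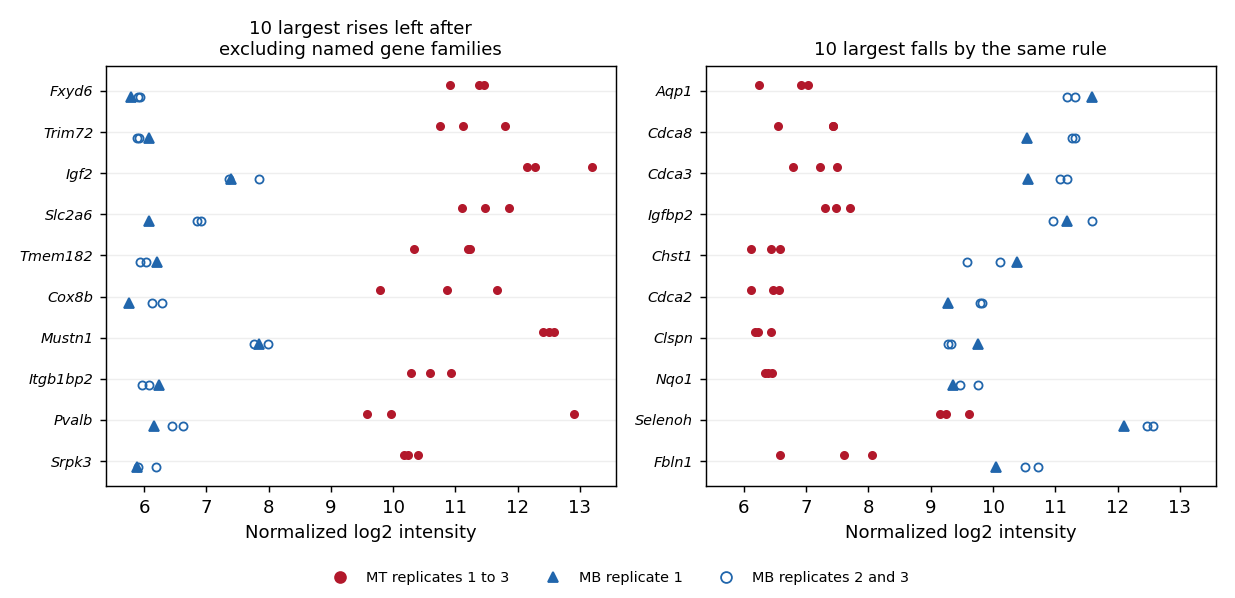
Normalized log2 intensity (horizontal axis) on each of the 3 MT and 3 MB arrays for the 10 largest rises (left) and the 10 largest falls (right) that matched no name pattern of muscle structure or cell cycle. The MT and MB arrays do not overlap for any of the 20 genes, and MT replicate 1 is the isolated Pvalb point at 12.90.

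Promoter sequence was looked up for these genes, since myogenic transcription factors of the MyoD family bind E-boxes. Sequences are RefSeq's, build GRCm38.p6, and the 250 bases before the first listed start site were available for 10930 of the genes tested. The E-box CAGCTG, a palindrome that reads the same on both strands and does not overlap CACGTG, was found in 12.1% of all these windows, in 19.8% of the windows of genes with a held call higher (102 of 514) and in 10.7% of those with a held call lower. Among the 10 largest rises 9 had a window and 3 of these held it (Cox8b, Srpk3 and Tmem182), against 0 of 9 windows among the largest falls. The windows of Cox8b, among the largest rises, and of Dusp27, a phosphatase-like gene described below that was higher in MTs, are shown because in both the word lies just before the start site, 19 and 12 bases upstream. The window of Srxn1, a redox gene that was lower in MTs, is shown for its 2 matches to the antioxidant response element, searched on both strands as TGACNNNGC or TGAGNNNGC, which begin 158 and 45 bases upstream. Capitals mark the matches, and all lines read 5′ to 3′ towards the start site. A match describes letters and is not evidence of binding.
Cox8b, chr7:140900447-140900696, minus strand: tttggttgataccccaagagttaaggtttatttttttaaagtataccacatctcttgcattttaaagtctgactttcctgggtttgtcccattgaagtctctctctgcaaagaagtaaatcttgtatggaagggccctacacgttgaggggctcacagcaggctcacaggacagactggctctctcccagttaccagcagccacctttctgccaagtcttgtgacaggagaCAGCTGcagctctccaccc
Dusp27, chr1:166127899-166128148, minus strand: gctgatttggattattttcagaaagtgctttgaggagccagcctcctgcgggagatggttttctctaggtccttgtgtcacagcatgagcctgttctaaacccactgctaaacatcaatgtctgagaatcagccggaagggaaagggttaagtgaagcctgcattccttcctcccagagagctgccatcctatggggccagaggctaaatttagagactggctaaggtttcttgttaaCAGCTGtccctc
Srxn1, chr2:152105274-152105523, plus strand: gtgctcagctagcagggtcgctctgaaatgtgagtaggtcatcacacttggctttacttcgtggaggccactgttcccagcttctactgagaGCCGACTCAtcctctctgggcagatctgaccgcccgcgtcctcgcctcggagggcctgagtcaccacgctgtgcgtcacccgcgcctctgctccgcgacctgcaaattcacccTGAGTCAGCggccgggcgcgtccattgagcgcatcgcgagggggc

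Antioxidant genes fell more often than they rose. Of 31 glutathione and redox genes tested 4 were called higher in MTs and 13 lower, with a median log2 ratio of −0.30, against 14.6% higher, 16.4% lower and a median of −0.02 over all genes, and 3 and 12 of the calls held. Nqo1 measured 6.46, 6.33 and 6.39 in MTs, against 9.35, 9.46 and 9.76 in MBs (log2 ratio −3.13 ± 0.10). Srxn1, which repairs oxidised peroxiredoxins and whose promoter is shown above, measured 7.02, 7.36 and 6.99 in MTs, against 9.46, 9.95 and 9.77 in MBs (−2.60 ± 0.11). The glutathione transferase gene Gsta4 measured 7.70, 7.66 and 7.77 in MTs, against 8.86, 10.63 and 10.78 in MBs, and its ratio of −2.38 became −3.00 without MB replicate 1. All 3 genes had MT arrays within a narrow range far below the MBs. Gclm, the regulatory subunit of glutathione synthesis, had a ratio of −1.78, Mgst3, a membrane-bound glutathione transferase, of −1.34, and Hmox1, which opens the heme ring, of −1.31. The members were not uniform, since Gclc, the catalytic partner of Gclm, had a ratio of −0.23, the cystine importer Slc7a11 of −0.23, the thioredoxin reductase Txnrd1 of −0.05 and the peroxiredoxin Prdx1 of −0.30, and none of these was called. Txnip, the inhibitor of thioredoxin, measured 10.93, 10.57 and 11.41 in MTs, against 8.48, 8.80 and 8.59 in MBs (2.34 ± 0.14). The extracellular peroxidase Gpx3 (1.34) and the mitochondrial superoxide dismutase Sod2 (1.13) were also higher, while the cytosolic dismutase Sod1 was lower (−0.87). Matches to the antioxidant response words stood in 8 of the 27 list members with a window, which is 29.6%, against 25.3% of all windows.

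**Figure D3:**
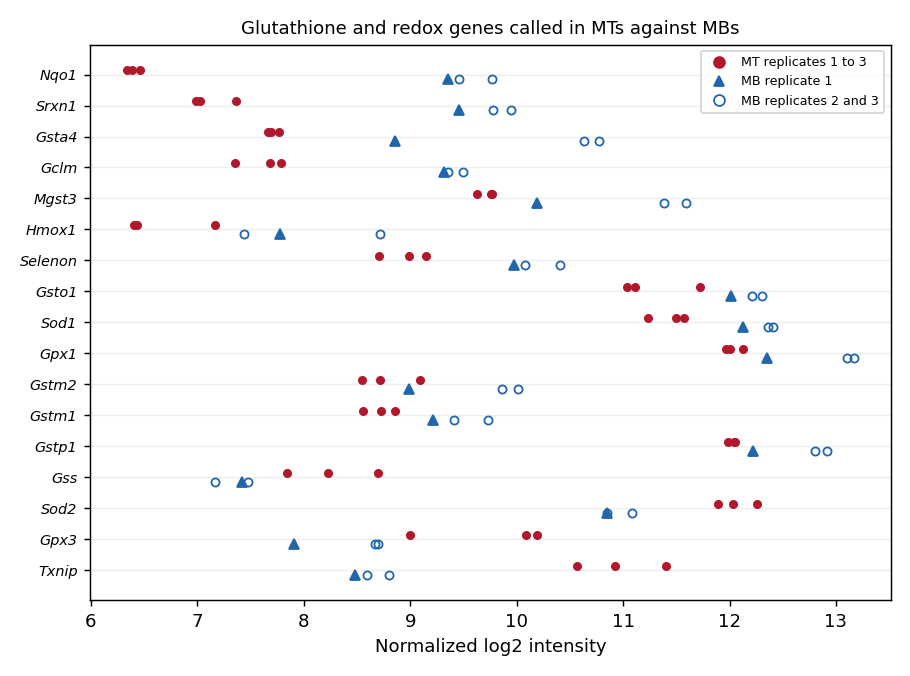
Normalized log2 intensity (horizontal axis) on each MT and MB array for the 17 called genes of the glutathione and redox list. The 13 upper genes were lower in MTs and the 4 lower ones higher, and for several, such as Gsta4, Mgst3 and Gpx1, MB replicate 1 lies nearer to the MT arrays than the other MB arrays do.

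**Figure D4:**
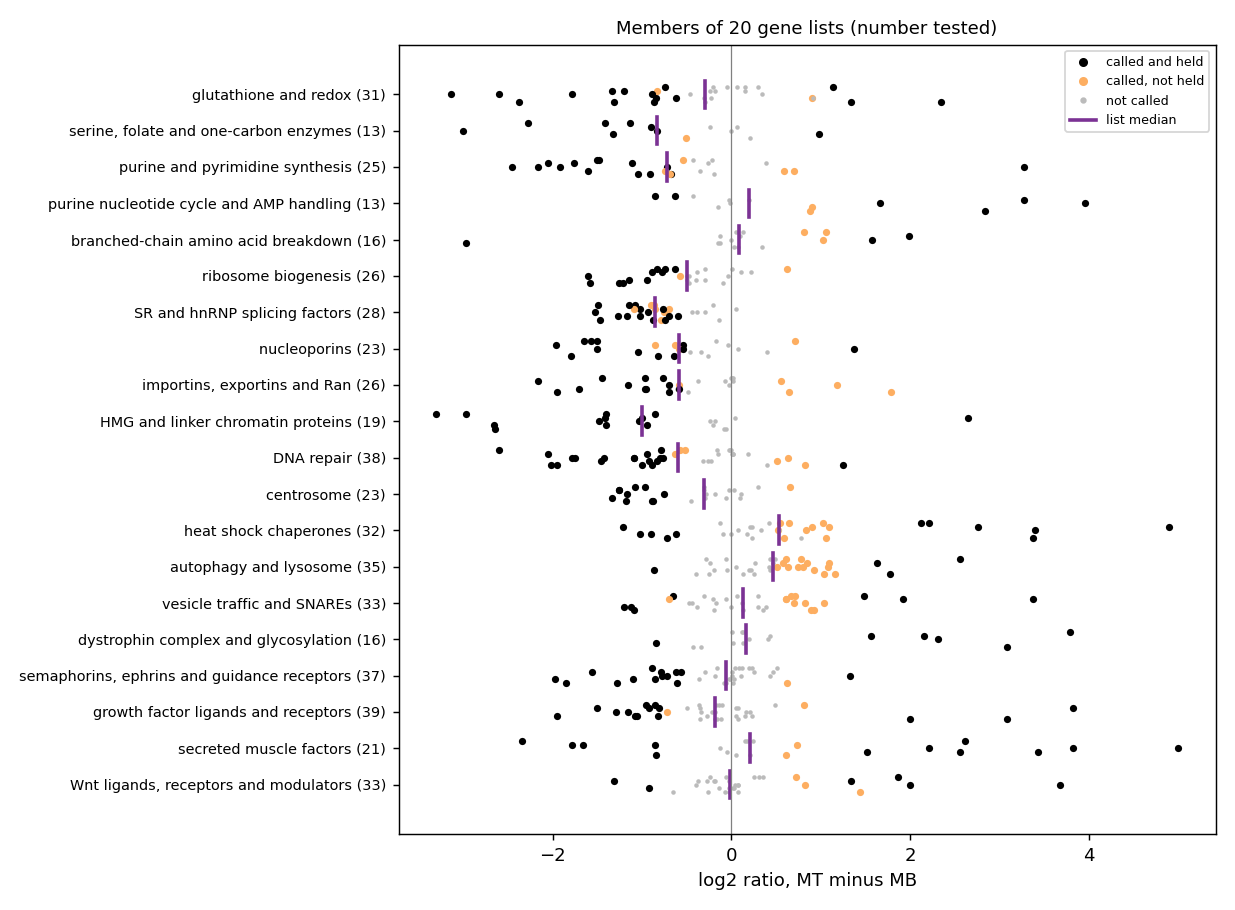
The log2 ratio of MTs over MBs (horizontal axis) for every tested member of the main gene groups, with the number tested in brackets, the list median as a bar, black points for calls that held without MB replicate 1 and with median scaling, orange points for other calls and grey points for genes not called. The splicing, chromatin, nucleoporin, import and repair groups lie mostly left of 0, with medians of −0.86, −1.0, −0.59, −0.58 and −0.60.

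Most genes tested for nucleotide and one-carbon metabolism were called lower in MTs. Of 25 purine and pyrimidine synthesis genes 16 were called lower and 3 higher (median −0.72, with 13 and 1 held), and of 13 serine, folate and one-carbon enzymes 8 were lower and 1 higher (median −0.84, with 7 and 1 held). Thymidylate synthase, Tyms, measured 7.98, 8.01 and 7.88 in MTs, against 11.10, 10.86 and 10.93 in MBs (−3.00 ± 0.10, 8.03-fold lower). The deoxycytidylate deaminase gene Dctd measured 6.75, 7.14 and 7.29 in MTs, against 9.35, 9.53 and 9.67 in MBs (−2.45). The cytosolic serine hydroxymethyltransferase Shmt1 measured 6.16, 6.64 and 6.50 in MTs, against 8.39, 8.79 and 8.95 in MBs (−2.28). These steps feed DNA precursor synthesis, as do both subunits of ribonucleotide reductase, Rrm1 (−2.05) and Rrm2 (−2.16). The fall also took in enzymes of purine synthesis from scratch, Pfas (−1.91) and Gart (−1.48), the salvage enzyme Aprt (−1.61), and Cad (−1.50), which opens pyrimidine synthesis. In the folate cycle Mthfd1 had a ratio of −1.41, and Phgdh, the entry to serine synthesis, of −1.32. Gldc, the glycine decarboxylase, was the exception among the one-carbon enzymes (0.98).

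The handling of AMP ran the other way for its muscle isoforms. Of 13 genes of the purine nucleotide cycle and AMP handling 6 were called higher and 2 lower (4 and 2 held), with a median of 0.19 that became −0.04 with median scaling. Prkag3, a gamma subunit of the energy sensor AMPK, measured 9.87, 10.32 and 10.15 in MTs, against 6.09, 6.29 and 6.09 in MBs (3.95 ± 0.10, 15.5-fold). Adssl1, the muscle adenylosuccinate synthase, measured 12.88, 12.86 and 12.72 in MTs, against 9.22, 9.80 and 9.63 in MBs (3.27, 9.65-fold). Ampd1, the muscle AMP deaminase, measured 9.33, 8.39 and 8.67 in MTs, against 5.92, 5.94 and 6.03 in MBs (at least 6.68-fold). All were far apart between the groups, and Ak1, the cytosolic adenylate kinase, had a ratio of 1.66.

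Amino acid and polyamine pathways were mixed. Of 10 polyamine and proline genes 5 were lower and 2 higher, with 5 and 0 held and a median of −0.60. Ass1, which makes argininosuccinate, measured 7.15, 7.74 and 7.52 in MTs, against 9.17, 10.00 and 10.33 in MBs (−2.36 ± 0.20), and spermidine synthase, Srm, measured 8.29, 8.98 and 8.89 in MTs, against 10.52, 10.76 and 11.10 in MBs (−2.07). Odc1, the first polyamine enzyme, had a ratio of −0.85, a call that was lost with the replicate number as a block (adjusted p 0.0524). Of 16 genes of branched-chain amino acid breakdown 5 were higher and 1 lower, 2 and 1 held, and the median of 0.08 became −0.16 with median scaling. Bcat1, the cytosolic transaminase that starts the path, measured 6.47, 7.83 and 8.35 in MTs, against 10.29, 10.57 and 10.72 in MBs (−2.97 ± 0.27). The mitochondrial steps Acadsb and Aldh6a1 were higher, by 1.98 and 1.57, and in Acadsb MB replicate 1, at 8.29, lay above the 7.32 and 6.89 of the other MBs.

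Genes of the citrate cycle and its entry gave no common direction. Of 24 tested 7 were called higher and 4 lower, with 2 and 3 held, and the median of 0.15 turned to −0.25 with median scaling. Mdh1, the cytosolic malate dehydrogenase, measured 9.12, 8.57 and 9.16 in MTs, against 7.61, 7.24 and 7.31 in MBs (1.56 ± 0.13). Suclg2, the GTP-forming subunit of succinyl-CoA ligase, measured 7.55, 7.37 and 7.69 in MTs, against 9.15, 8.83 and 8.72 in MBs (−1.36 ± 0.10). Pdhb, of the pyruvate dehydrogenase complex, was higher by 1.23 and Idh3b lower by −1.11. Sdhd, the membrane anchor of succinate dehydrogenase, and Dld, the dehydrogenase shared by the 2-oxoacid complexes, were among the genes that MB replicate 1 changed most, with ratios of 1.54 and 1.71 on all arrays and of 2.15 and 2.50 without it, and neither call was kept with median scaling. Mitochondrial biogenesis and dynamics gave 2 calls higher and 3 lower of 26, and the 3 lower ones held: the transcription factor Nrf1 (−1.07), the prohibitin Phb2 (−1.02) and the nucleotide carrier Slc25a5 (−0.69). Among 22 genes of iron and heme, Alad, which joins aminolevulinate, was lower (−1.23), while Uros, a later heme enzyme (1.09), and the iron-sulfur scaffold Iscu (1.11) were higher, and these were the only 3 held calls of the list.

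Genes that make ribosomes were called lower in MTs more often than higher. Of 26 ribosome biogenesis genes 12 were called lower and 1 higher (median −0.50), and 11 and 0 held. Nop56, a core protein of the particles that methylate rRNA, measured 8.21, 8.30 and 8.43 in MTs, against 10.22, 9.54 and 9.99 in MBs (−1.60 ± 0.13). Gar1, of the particles that make pseudouridine, measured 9.86, 10.39 and 9.76 in MTs, against 11.42, 11.60 and 11.74 in MBs (−1.58). Neither overlapped, and nucleophosmin, Npm1 (−1.26), and Nhp2 (−1.21) fell by less. Of 22 translation factors 9 were lower and 2 higher, with 7 and 0 held, led by Eif4a1, the RNA helicase of the cap-binding complex (−1.01), Eif5a (−0.83) and Eif6 (−0.78). Of 18 aminoacyl-tRNA synthetases 4 were lower and 1 higher, against 16.4% lower and 14.6% higher over all genes. Vars (−1.27) was the only one of the 4 with a ratio below −1.

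Splicing factors moved in a single direction. Of 28 SR proteins, hnRNPs and core snRNP proteins tested 22 were called lower, 18 without MB replicate 1, and 15 held, and none was called higher in any of the 3 settings (median −0.86). Srsf1, an SR protein that promotes exon inclusion, measured 10.13, 10.38 and 10.66 in MTs, against 12.10, 11.90 and 11.75 in MBs (−1.53 ± 0.11, adjusted p 8.4e-10). Snrpd1, an Sm core protein, measured 10.50, 10.41 and 10.43 in MTs, against 12.00, 11.81 and 12.01 in MBs (−1.49). Srsf2 measured 10.72, 10.79 and 11.24 in MTs, against 12.35, 12.39 and 12.44 in MBs (−1.47). These lay well apart, and Hnrnpl, which binds CA repeats, had a ratio of −1.26. The muscle SR kinase Srpk3, among the largest rises above, was called in the opposite direction, with 10.39, 10.23 and 10.17 in MTs, against 5.88, 5.90 and 6.19 in MBs.

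Genes of nuclear pores and nuclear transport were called lower more often than higher. Of 23 nucleoporins 14 were lower and 2 higher (median −0.59, 11 and 1 held), and of 26 genes of importins, exportins and Ran 13 were lower and 4 higher (median −0.58, 12 and 0 held). Nup205, of the inner ring, measured 8.60, 9.21 and 9.08 in MTs, against 10.83, 11.01 and 10.93 in MBs (−1.96 ± 0.11). Nup85, of the Y complex that coats the pore, measured 8.34, 8.23 and 8.23 in MTs, against 10.27, 9.83 and 10.07 in MBs (−1.79). Rcc1, which loads Ran with GTP on chromatin, measured 6.21, 6.53 and 6.49 in MTs, against 8.56, 8.46 and 8.70 in MBs (−2.16). Calls lower thus included both scaffold and Ran genes, with Ranbp1 at −1.95, Ipo5 at −1.70, Nup43 at −1.57 and Aaas at −1.65. Nup210, a membrane-spanning nucleoporin known to appear in myogenesis, measured 7.51, 7.29 and 7.28 in MTs, against 5.90, 6.05 and 6.01 in MBs (1.37) and was the only held rise. Kpna3, an importin alpha, measured 9.02, 9.13 and 9.01 in MTs, against 8.80, 6.62 and 6.39 in MBs, so its call (1.78) rested on the MB arrays other than replicate 1. For Rangap1, called lower by −1.45 on its brightest probe, 2 other probes were also called lower (−1.41 and −0.77), and a dim one was called higher by 0.98.

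Most HMG, linker histone and histone chaperone genes tested were called lower as well. Of 19 HMG proteins, linker histones and histone chaperones 12 were lower and 1 higher (median −1.0), and all 13 calls held. Chaf1b, of the chromatin assembly factor that follows the replication fork, measured 6.18, 6.59 and 6.72 in MTs, against 9.34, 10.03 and 10.03 in MBs (−3.31 ± 0.16, 9.90-fold lower). Hmgb2, an HMG-box protein of dividing cells, measured 6.54, 7.00 and 7.10 in MTs, against 9.61, 9.55 and 10.38 in MBs (−2.97), and the histone chaperone Asf1b had a ratio of −2.65. H1f2, a linker histone, went the other way, with 12.85, 12.42 and 12.10 in MTs, against 10.34, 9.67 and 9.41 in MBs (2.65, 6.27-fold higher). Anp32a was called lower by −0.85 with another probe called higher by 0.94. Of 38 DNA repair genes 21 were lower and 4 higher (median −0.60, 18 and 1 held). Rad54l, a motor of homologous recombination, measured 5.95, 5.99 and 6.22 in MTs, against 8.48, 8.75 and 8.73 in MBs (−2.60 ± 0.09). Ung, which removes uracil from DNA, measured 6.78, 6.98 and 6.47 in MTs, against 8.75, 8.77 and 8.86 in MBs (−2.05), and the mismatch gene Msh6 had a ratio of −2.02 and the ligase Lig1 of −1.95. The genes thus came from recombination, base excision and mismatch repair. Parp3 was the held exception (1.25). Of 23 centrosome genes 10 were lower and 1 higher, and all 10 held, among them the duplication kinase Plk4 (−1.33) and Cdk5rap2 (−1.26). In Plk4 and the abscission gene Cep55 MB replicate 1 lay far above the others, at 8.63 and 8.22, and without it the ratios were −0.87 and −0.79.

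General chromatin regulators were called about equally in both directions, as all genes were (14.6% higher and 16.4% lower). Of 41 histone deacetylases, methyl-lysine enzymes and readers 9 were higher and 10 lower, with 3 and 9 held, and of 26 remodeler subunits 3 were higher and 3 lower. The lysine methyltransferase Setd7 measured 10.25, 10.19 and 9.86 in MTs, against 9.28, 7.93 and 7.62 in MBs (1.82, and 2.33 without MB replicate 1). The demethylase Kdm7a measured 10.34, 9.10 and 9.92 in MTs, against 8.46, 8.12 and 7.60 in MBs (1.73), and Kdm6b, which removes H3K27 methylation, had a ratio of 1.27. The deacetylase Hdac7 measured 6.64, 7.15 and 6.93 in MTs, against 8.28, 8.52 and 8.19 in MBs (−1.42). The held falls of the SWI/SNF subunits, Smarcd2 (−1.12), Smarcb1 (−1.04) and Smarcc1 (−0.91), were the only held calls among the remodelers.

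Small heat shock proteins and the myosin chaperone made up the held rises among chaperones. Of 32 heat shock chaperones tested 15 were higher and 5 lower (median 0.53), but median scaling evened this to 6 and 6 (median 0.12), and 6 and 5 calls held. Unc45b, which folds myosin heads, measured 10.82, 11.03 and 11.01 in MTs, against 6.02, 6.20 and 5.94 in MBs (4.90 ± 0.08, 29.8-fold). Hspb3 measured 9.43, 9.52 and 9.27 in MTs, against 6.02, 5.97 and 6.03 in MBs (at least 10.2-fold), and Hspb7 measured 9.40, 9.46 and 9.14 in MTs, against 5.92, 6.01 and 5.93 in MBs (at least 9.68-fold). These small heat shock proteins bind unfolded clients without ATP, and Hspb2 (2.76), Cryab (2.21) and Hspb8 (2.12) rose with them. Their relative Hspb6 was lower (−1.03), a call that held. The mitochondrial chaperonin Hspd1 was lower (−1.21, and −0.71 without MB replicate 1), as was the HSP70 partner Dnajb1 (−0.90).

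Autophagy and lysosome genes were called higher in 16 of 35 cases and lower in 1 (median 0.46), with 3 and 1 held, and with median scaling the counts were 3 higher and 4 lower (median 0.08). Map1lc3a, which coats the forming autophagosome, measured 10.96, 11.10 and 10.81 in MTs, against 8.20, 8.61 and 8.37 in MBs (2.56 ± 0.10, 5.91-fold). Its relative Map1lc3b measured 9.32, 9.49 and 9.48 in MTs, against 8.48, 7.65 and 7.29 in MBs (1.63), and the cytosolic sialidase Neu2 measured 8.73, 8.06 and 8.78 in MTs, against 6.33, 6.94 and 6.96 in MBs (1.78). The cathepsins Ctsa (1.16) and Ctsd (1.10) were higher only with quantile normalization of the 2 scalings. The proteasome showed no direction that stood: 7 of 31 subunits were called higher and 2 lower with a median of 0.10, and 0 higher and 5 lower with a median of −0.25 under median scaling. Psmd14, its deubiquitinase, measured 10.67, 10.49 and 10.67 in MTs, against 10.51, 8.37 and 8.22 in MBs. Of 24 apoptosis regulators 8 were higher and 4 lower, with 1 and 4 held. The initiator caspase Casp8 measured 7.11, 7.18 and 7.14 in MTs, against 9.11, 8.71 and 8.45 in MBs (−1.61 ± 0.12), the apoptosome gene Apaf1 had a ratio of −1.53 and the BCL2 relative Bok of −1.25, while the death receptor Fas had 1.11.

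At the membrane, the dystrophin-associated complex gave 5 calls higher and 1 lower of 16 tested, all 6 of them held, with a median of 0.16 that was 0.00 with median scaling. Sgca, the muscle-specific sarcoglycan, measured 11.05, 10.62 and 10.60 in MTs, against 6.75, 7.06 and 7.08 in MBs (3.79 ± 0.11, 13.9-fold). Dysf, the dysferlin of membrane resealing, measured 9.82, 10.14 and 10.08 in MTs, against 6.97, 6.93 and 6.88 in MBs (3.09), and dystroglycan, Dag1, measured 12.08, 11.69 and 12.03 in MTs, against 10.13, 9.64 and 9.55 in MBs (2.16). The linker dystrobrevins parted, with Dtna at 2.31 and Dtnb at −0.85. Adhesion genes were as often higher as lower (5 and 5 of 31, 2 and 5 held), near the shares over all genes of 14.6% higher and 16.4% lower. Ncam1, a neural adhesion molecule of young muscle fibres, measured 11.70, 12.05 and 11.81 in MTs, against 8.65, 8.78 and 9.18 in MBs (2.99), and Cdh13, a cadherin on a lipid anchor, had a ratio of 2.61. The gap junction gene Gja1 measured 8.83, 9.83 and 9.72 in MTs, against 12.12, 11.60 and 11.59 in MBs (−2.31), and Cadm1 had a ratio of −1.86. Of 21 tetraspanins 7 were higher and 3 lower (3 and 3 held), with Tspan8 at 2.83 and Cd9, which takes part in cell fusion, at −1.04.

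Traffic genes gave 12 calls higher and 5 lower of 33 (median 0.13), but 3 higher and 9 lower with median scaling (median −0.08), and 3 and 4 held. Vamp5, a SNARE of muscle membranes, measured 11.42, 11.96 and 11.32 in MTs, against 8.13, 8.23 and 8.20 in MBs (3.38 ± 0.12, 10.4-fold). Tbc1d1, which restrains glucose transporter vesicles, measured 9.91, 9.78 and 9.91 in MTs, against 7.88, 8.0 and 7.95 in MBs (1.92), and Rab3a, a GTPase of regulated secretion, had a ratio of 1.48. Among 29 tubulins and microtubule-associated genes 9 were higher and 7 lower, with 5 and 7 held. Map4 measured 9.35, 8.19 and 8.57 in MTs, against 6.33, 6.03 and 6.21 in MBs (2.51 ± 0.18), and Mapt, the tau gene, measured 7.76, 8.10 and 8.35 in MTs, against 6.01, 6.21 and 5.96 in MBs (2.01). Both bind along microtubules. Tubb5, a beta-tubulin of dividing cells, measured 11.76, 13.22 and 13.27 in MTs, against 13.99, 14.46 and 14.29 in MBs (−1.50). Of 14 intermediate filament genes desmin, Des, was higher (1.83) and vimentin, Vim, lower (−1.87).

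Growth factor ligands and receptors were lower in 12 of 39 cases and higher in 4 (median −0.18), and 11 and 3 of the calls held. Among ligands Hgf, the mitogen that wakes satellite cells, measured 6.21, 5.97 and 6.16 in MTs, against 8.03, 8.12 and 8.04 in MBs (−1.95 ± 0.07). The neurotrophic factor Gdnf measured 6.95, 7.82 and 7.83 in MTs, against 8.80, 9.19 and 9.13 in MBs (−1.51), and the macrophage factor Csf1 had a ratio of −1.29. Fgf21, an endocrine FGF, went the opposite way, with 10.32, 10.03 and 10.54 in MTs, against 6.26, 6.57 and 6.58 in MBs (3.83 ± 0.11, 14.2-fold). Among receptors Fgfrl1, which binds FGFs but lacks the kinase, measured 10.90, 10.85 and 10.78 in MTs, against 7.56, 7.91 and 7.82 in MBs (3.08). Genes named for the dual-specificity phosphatase family, only some of which switch off MAP kinases, divided. Dusp5 measured 6.74, 6.92 and 6.95 in MTs, against 8.30, 8.49 and 8.48 in MBs (−1.55), and Dusp4 and Dusp6, which like it are induced by ERK, had ratios of −1.43 and −0.92. Dusp27, which lacks a working catalytic site and whose promoter is shown above, measured 9.26, 9.81 and 9.71 in MTs, against 6.39, 6.99 and 7.00 in MBs (2.80), and Dusp3 (1.78) and Dusp13 (1.74) were also higher. Over the 33 genes of that list 6 were higher and 7 lower, with 4 and 6 held, against 14.6% higher and 16.4% lower over all genes.

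Guidance molecules were called lower in 13 of 37 cases and higher in 2, with 13 and 1 held, although the list median was only −0.06. Efna5, an ephrin ligand on a lipid anchor, measured 6.66, 7.54 and 7.69 in MTs, against 9.11, 9.28 and 9.42 in MBs (−1.98 ± 0.17). Sema7a, a membrane-bound semaphorin, measured 7.59, 7.89 and 7.71 in MTs, against 9.66, 9.28 and 9.81 in MBs (−1.85). The receptors Epha2 (−1.56) and Nrp1 (−1.28) fell too, so ligands and receptors were both affected, and Sema3f was the held exception (1.33).

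Wnt genes gave 7 calls higher and 2 lower of 33, with a median of −0.01, and 4 and 2 held. Porcn, the acyltransferase without which Wnts are not secreted, measured 11.80, 11.67 and 11.49 in MTs, against 8.24, 7.74 and 7.93 in MBs (3.68 ± 0.10, 12.8-fold). The ligand Wnt10a measured 10.35, 10.49 and 10.52 in MTs, against 8.92, 8.48 and 8.36 in MBs (1.87). Inhibitors and effectors also changed, with Nkd2, a feedback inhibitor, at 1.33 and the nuclear effector Tcf7l2 at −0.92. Of 22 Hippo pathway genes and targets 7 were lower and 3 higher (6 and 2 held). The coactivators parted, as Wwtr1, which encodes TAZ, measured 10.84, 11.26 and 11.23 in MTs, against 9.88, 9.05 and 8.74 in MBs (1.89), while Yap1 measured 8.10, 7.88 and 7.54 in MTs, against 8.43, 8.45 and 8.44 in MBs (−0.60). Their DNA-binding partner Tead4 was higher (1.53) and the targets Axl (−1.50) and Nuak2 (−1.43) were lower. In the hedgehog pathway the transducer Smo had a ratio of −1.36 and the repressor Gli3 of −1.88.

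In cAMP signalling 7 genes of 34 were higher and 8 lower, with 2 and 8 held, against 14.6% higher and 16.4% lower over all genes. Prkar2b, a regulatory subunit of kinase A, measured 7.86, 7.69 and 7.58 in MTs, against 10.54, 10.61 and 10.35 in MBs (−2.79 ± 0.11, 6.93-fold lower). Akap12, a scaffold that tethers kinase A near the plasma membrane, measured 6.04, 6.00 and 5.99 in MTs, none above background, against 9.15, 8.70 and 8.57 in MBs (at least 6.57-fold lower). In MTs the anchor Akap6 of the nuclear envelope measured 7.61, 7.85 and 7.92, against 6.09, 6.56 and 6.57 in MBs (1.38). Among 25 calcineurin and calmodulin genes 7 were higher and 4 lower (4 and 4 held). Myoz2, which tethers calcineurin at the Z-disc, measured 11.38, 11.45 and 12.18 in MTs, against 5.95, 5.94 and 6.01 in MBs (at least 48.9-fold), and the kinases Camk2b (2.20) and Camk2a (2.04) were higher too. Among cytokine genes Stat3 measured 9.67, 10.25 and 10.64 in MTs, against 8.40, 8.45 and 8.56 in MBs (1.72), and Il15, a cytokine made by muscle, measured 8.63, 7.45 and 8.18 in MTs, against 6.37, 6.82 and 6.50 in MBs (1.52). The list of 31 gave 8 higher and 6 lower, with 3 and 4 held.

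Secreted muscle factors were called in 14 of 21 cases, 9 higher and 5 lower, and 7 and 5 held (median 0.21). Beside Igf2 and Fgf21, Dcn, a proteoglycan that binds TGF-beta, measured 9.69, 9.47 and 10.13 in MTs, against 6.90, 7.26 and 7.29 in MBs (2.61 ± 0.14), and Fndc5, the precursor of irisin, measured 8.67, 8.49 and 8.95 in MTs, against 6.02, 6.21 and 6.21 in MBs (2.56). Angptl4, which inhibits lipoprotein lipase, measured 7.22, 7.14 and 7.30 in MTs, against 9.47, 9.69 and 9.54 in MBs (−2.35). Erfe, known as a hormone of iron balance, and Metrn were lower as well, with ratios of −1.78 and −1.65, so the secreted set did not move as a block. Plaur, the urokinase receptor, and its ligand Plau were lower, by −2.14 and −1.63, and the complement inhibitor Serping1 was higher (1.82).

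Held rises were few among transcription factors outside the myogenic families, as they were among all genes tested (4.82%). Of 38 KLF, AP-1, ETS and SRF-related genes 6 were higher and 8 lower, with 2 and 6 held, against 14.6% higher and 16.4% lower over all genes. Abra, an actin-binding coactivator of SRF signalling, measured 9.13, 9.41 and 9.42 in MTs, against 5.95, 5.92 and 5.79 in MBs (at least 9.58-fold). The ETS factors Etv4 and Ets1, which act downstream of Ras, had ratios of −2.35 and −1.80. Of 38 homeobox and T-box genes 6 were higher and 7 lower (1 and 6 held), near the same shares over all genes. The held rise was Tbx15, with 8.80, 9.0 and 8.93 in MTs, against 6.64, 6.53 and 6.71 in MBs (2.28). Of 27 nuclear receptors and coregulators none was called higher and 5 were lower, with 3 held, and the calls lower were near their share over all genes (16.4%). Pparg, the fat cell regulator, measured 6.70, 6.70 and 6.85 in MTs, against 8.34, 8.44 and 8.44 in MBs (−1.65 ± 0.08). Of 18 clock genes 4 were higher and none lower, and the median of 0.19 became −0.06 with median scaling, under which 2 were higher and 2 lower. Bhlhe40, a clock repressor that also answers to stress, measured 10.86, 11.32 and 11.34 in MTs, against 9.20, 8.93 and 9.06 in MBs (2.11), and Tef had a ratio of 1.35. The core genes Per1 (−0.06), Per2 (0.25) and Nr1d1 (−0.07) were not called. Of 21 imprinted genes 6 were higher and none lower, but only Igf2 and Dcn held, and with median scaling 2 were higher and 2 lower.

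Held calls among markers of other cell types were few, as they were among all genes tested (4.82% higher and 13.4% lower). Of 9 fibroblast markers 3 were higher and none lower, and Dcn alone held. Their summed intensity was 4024 to 4553 on MT arrays, against 1734 to 4525 on MB arrays, where the highest sum overlapped the MT range, and Lum and Postn were not above background on any of the 6 arrays. Col3a1 measured 9.33, 9.44 and 8.70 in MTs, against 9.34, 7.04 and 6.79 in MBs. Of 6 adipocyte markers 2 were lower, Pparg and Lpl (−0.77), the sum was 470 to 510 on MT arrays, against 805 to 852 on MB arrays, and Cd36 was not above background. Osteoblast markers gave 1 call higher and 1 lower among 5, and neither held. Endothelial and immune markers gave no call among 7, with sums of 467 to 503 on MT arrays, against 469 to 481 on MB arrays, and Vwf was not above background. Of 7 smooth muscle markers 1 was higher and 2 lower, with 0 and 2 held. Actg2 (−2.47) and Tagln (−0.90) were lower, and Smtn was higher (0.90), a call that was lost with the replicate number as a block (adjusted p 0.0758). Of 11 reserve and satellite cell markers 2 were higher and 4 lower, with 1 and 2 held, as Sdc3 (−1.94) and Vcam1 (−1.59) fell and the integrin Itga7 rose (1.51). Their summed intensity was 4309 to 5616 on MT arrays, against 4568 to 5147 on MB arrays. Whether residual unfused cells took part in any result was not tested.

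In some cases genes that share a family name or function were called in opposite directions. The 14 pairs described here were chosen for their opposite calls after the values were seen and are given as a description only. Other relatives named above moved the same way, such as Rrm1 with Rrm2, Camk2a with Camk2b and Map1lc3a with Map1lc3b, and pairs of either kind were not counted. In 11 of them both calls held. Gja5, a connexin, measured 8.66, 9.94 and 10.18 in MTs, against 6.03, 6.15 and 6.11 in MBs (3.50), opposite to Gja1 (−2.31). Adssl1 (3.27) stood opposite Adss, the synthase of most tissues, which measured 7.12, 7.07 and 6.99 in MTs, against 9.23, 8.46 and 8.76 in MBs (−1.76). Fxyd6 (5.38) stood opposite Fxyd5, with 7.17, 7.83 and 7.46 in MTs, against 9.14, 9.56 and 9.93 in MBs (−2.06). Each of these pairs thus lay several log2 units apart. Prkag3 (3.95) was paired with Prkag1 (−0.63), Ampd1 with Ampd2 (−0.85), Akap6 (1.38) with Akap12, which share the anchoring of kinase A, Hspb3 with Hspb6 (−1.03), Sfrp2 (2.00) with Sfrp1 (−1.31), Capn3 (1.27) with Capn2 (−0.70), Tubb6 (1.44) with Tubb5 (−1.50) and Camk2b (2.20) with Camk2d (−0.52). The weakest sides were Prkag1, whose ratio was −0.49 without MB replicate 2, which ended the call, and whose adjusted p was 0.0893 with the replicate number as a block, and Camk2d, which fell short of 0.5 in size without MT replicate 1 (−0.47) or MT replicate 2 (−0.50) and turned to 0.0487 with the control shRNA MTs as end point. In the other 3 pairs the rise did not hold: Mapre3 (1.30) with Mapre1 (−0.84), Eif4a2 (1.00) with Eif4a1 (−1.01) and Prkar2a (0.68) with Prkar2b (−2.79).

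**Figure D5:**
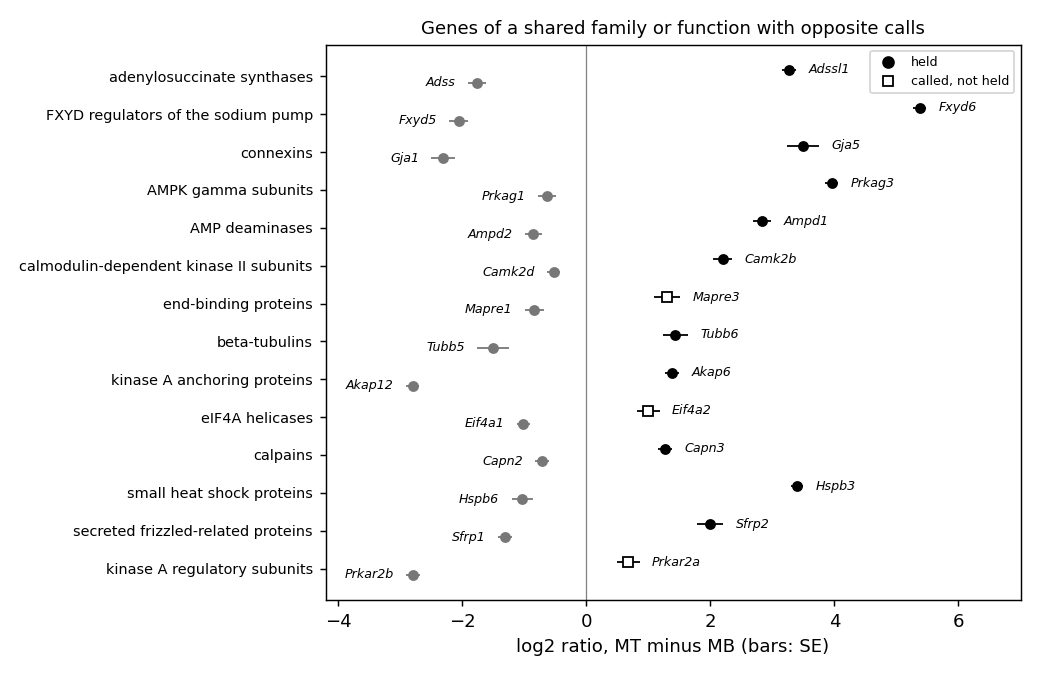
The log2 ratio of MTs over MBs (horizontal axis, bars are SE) for 14 pairs of genes with a shared family name or function called in opposite directions, chosen after their values were seen. Rises are black, with open squares where the call did not hold, and falls are grey, from −2.80 for Akap12 to 5.38 for Fxyd6.

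Different probes of a gene could also disagree. Among the 5746 genes with more than 1 kept probe 42 had probes called in both directions. For the actin-capping gene Capzb the probes gave 2.96, 2.61 and −0.54, and for Pdlim5, a Z-disc adaptor with many splice forms, 3.11, 1.71 and −0.66. For such genes the value of the brightest probe stands for the transcripts that it matches and not for the gene as a whole.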

How the data were processed

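RNA from C2C12 MTs and MBs was hybridised to Illumina MouseWG-6 arrays. For 45281 probes the authors deposited a scanner table of signal intensity before normalization, with no detection p-values or control probes. Their value matrix, also deposited, is on the log2 scale, quantile-normalized according to their methods, and ranks probes within each array as the scanner table does. It was used only as an alternative. The software version is not given in the sources used here.

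The scanner intensities were background-corrected (normexp, offset 50), quantile-normalized and put on the log2 scale in limma 3.58.1 (R 4.3.3). An array's background level was the point with an upper tail of 0.05 in a normal distribution around the mode of its log2 signals, with the spread of the values below the mode. Probes above it on at least 3 of 21 arrays were kept (27855, 61.5%). Of all probes 34885 had 1 gene symbol, 18 several and 10378 none. The kept probe that was brightest on average over the 21 arrays, most of them MT arrays, stood for each of 13581 genes. A mean for each group was fitted to the 21 arrays (lmFit, eBayes), and p-values were adjusted by Benjamini and Hochberg across the genes. The procedure was tested on simulated data. SE is that of the log2 ratio.

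Same-numbered MT and MB replicates deviated together (r 0.247, 0.151 and 0.129), and differently numbered ones had r of −0.214 to 0.137, with MT replicate 2 and MB replicate 3 at 0.137 and MT replicate 3 and MB replicate 2 at 0.0946, so that only the replicates numbered 1 paired distinctly. Deviations from a group mean cancel out within the group, so these values are tied to one another and are not separate evidence of pairing. The replicate number was also tried as a block. Other alternatives concerned offset, background, scaling, filters, array weights, probe averaging, the end point and leaving out each array.

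The gene lists (59, with 1625 entries, of which 1363 were tested) and the questions asked were chosen with earlier results of these data known. Named genes are, for each list described, up to 4 called members of largest ratio whose groups do not overlap, called with and without MB replicate 1, and the 10 largest rises and falls outside name patterns of muscle structure and cell cycle. Further members were chosen after their values were seen. Symbols are those of the platform annotation, replaced by the RefSeq symbol where the gene identifier matched.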

Additional observations from a re-analysis of the deposited data

How the results depend on the processing

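The counts of calls kept within 1.5 times of 1982 higher and 2226 lower under most alternatives. Median scaling gave 658 higher, and its 3056 lower stayed within that range. A test against the log2 threshold itself (treat) gave 996 higher and 1183 lower. Leaving out each array in turn gave 1876 to 2140 higher and 2112 to 2405 lower. The replicate number as a block gave 1700 higher and 1976 lower. It ended 7 calls among the 244 genes of the naming rule and the pairs (Arntl, Col1a1, Cry2, Odc1, Prkag1, Smtn and Wars) and changed no other call of them. MB replicate 1 alone as the MB group, an alternative chosen after seeing the data, gave 2030 and 2178, of which 1524 and 1715 were shared, and the lone array is then assumed to vary like the other groups. Of the 244 genes all kept their calls with an offset of 16 and with no filter, and 33 lost them with median scaling. Leaving out MB replicate 1 says nothing about them, since nearly all were chosen for being called without it. With the control shRNA MTs as the end point 13 lost their call and 7 turned: Aars (0.092), Arhgap24 (−0.55), Camk2d (0.0487), Cdkn1c (−0.45), Mest (−0.53), Ramp2 (−0.40) and Wars (0.24). The cause was not tested. Without MB replicate 2 the calls of Col1a1, Prkag1 and Wars were lost. Each group holds 3 arrays, and near background the offset compresses ratios, which limits what could be called among dim genes.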
